A study of Homo sapiens with 54 samples.

Results

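The 8 genes described here were the metallothionein genes MT2A, MT1X, MT1E, MT1F, MT1G and MT1M, the transcription factor gene MTF1 and the zinc exporter gene SLC30A1. They were taken by symbol from the 27978 genes of the count table, which held all 8. RNA-seq was performed on MDA-MB-231, an established human breast cancer cell line, in 54 libraries that formed 18 groups of 3, to ask which fractions of a herbal mixture change the transcripts of the cells. Between 17673537 and 26138924 reads per library were assigned to genes.

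UT cells received no drug. CKI is Compound Kushen Injection, an extract of the plants Sophora flavescens and Heterosmilax chinensis, given at 2 mg/ml, and the other mixtures were given at an amount equivalent to 2 mg/ml of CKI. N_2 was CKI from which oxymatrine (Omt) and oxysophocarpine (Ospc) had been taken out, and N_3 also lacked macrozamin (Mac). OO held only Omt and Ospc, and MOO held only Mac, Omt and Ospc. These 5 treatments and UT were sampled after 24 h and after 48 h in batch 1. Batch 2 was sampled at 48 h and held UT, CKI and 4 mixtures that each lacked 1 compound, namely N_Mac, N_Nme (without N-methylcytisine), N_Omt and N_Tri (without trifolirhizin). Every group was a culture of the same line, and the series' design text calls the 3 libraries of a group biological replicates.

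Metallothioneins are small cysteine-rich proteins that bind zinc and copper ions and lower the amount of free metal in the cell. MTF1 senses free zinc and binds metal response elements in the promoters of metallothionein genes and of SLC30A1, whose product carries zinc out of the cell. Metallothionein genes are induced by zinc, cadmium and copper and also by glucocorticoids and oxidants, and they are widely used as a readout of metal load in cultured cells.

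The promoters are shown because the metal response element is the sequence through which MTF1 acts on these genes. RefSeq gave a promoter for 4 of the 8 genes in build GRCh38.p14, namely MT2A, MT1X, MTF1 and SLC30A1, and none was shown for MT1E, MT1F, MT1G and MT1M. The 250 bases before the start site were searched on both strands for the core letters TGCACNC and TGCGCNC, and capitals mark each match. The sequences run 5′ to 3′ along the gene's own strand.
MT2A, chr16:56608334-56608583, plus strand: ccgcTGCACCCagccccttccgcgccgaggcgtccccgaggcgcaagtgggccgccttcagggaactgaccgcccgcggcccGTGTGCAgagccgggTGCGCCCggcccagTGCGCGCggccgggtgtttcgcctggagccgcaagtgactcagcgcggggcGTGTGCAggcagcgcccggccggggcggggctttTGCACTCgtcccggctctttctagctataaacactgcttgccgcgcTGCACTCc
MT1X, chr16:56682220-56682469, plus strand: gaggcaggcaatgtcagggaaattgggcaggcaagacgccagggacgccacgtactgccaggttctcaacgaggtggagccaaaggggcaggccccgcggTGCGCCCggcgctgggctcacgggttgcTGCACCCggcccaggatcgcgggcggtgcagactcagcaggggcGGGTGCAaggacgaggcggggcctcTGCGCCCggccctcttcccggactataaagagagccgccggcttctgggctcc
SLC30A1, chr1:211579162-211579411, minus strand: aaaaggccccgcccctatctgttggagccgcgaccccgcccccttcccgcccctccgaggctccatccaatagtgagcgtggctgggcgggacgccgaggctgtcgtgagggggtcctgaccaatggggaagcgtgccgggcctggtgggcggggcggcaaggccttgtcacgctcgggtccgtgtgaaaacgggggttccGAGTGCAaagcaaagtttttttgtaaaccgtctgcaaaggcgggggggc
The MT2A window held 7 matches, the MT1X window 4 and the SLC30A1 window 1. The MTF1 window, chr1:37859593-37859842 on the minus strand, held 0. Of 35116 promoter windows of the same length, 24.8% held at least 1 match, 0.37% at least 4 and 0.0313% at least 7. A match is an occurrence of these letters and not a measured binding site. All 6 metallothionein members lie on chromosome 16, where RefSeq lists 16 metallothionein genes and pseudogenes in a row, with MT2A the third and MT1X the last of them, while MTF1 and SLC30A1 lie on chromosome 1.

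Values below are in CPM, the usual unit of read counts relative to the total of a library, here scaled by the trimmed mean of M-values (TMM). Fold changes and p-values were obtained with edgeR (quasi-likelihood fit), the p-values were adjusted over all genes tested by the Benjamini-Hochberg method, and a gene is called changed at an adjusted p under 0.05. The share of all tested genes that were called is given beside each count of members, because most genes moved in many comparisons. In bulk RNA, fewer expressing cells and less RNA per cell cannot be told apart. The treated groups of a time and batch share the same 3 UT libraries, so their fold changes are not independent. Reads of near-identical genes can be split between them in counting. Of the stretches of 100 bases in the GENCODE transcript of MT1X, 50.8% also occur in the gene AC026461.1, which was not analysed here, while no stretch of the other 7 members occurs in another gene. The strand setting of the counting was not given in the sources used here.

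In batch 1 at 24 h, 3 libraries stood apart in the direction of batch 2. CKI replicate 1, OO replicate 2 and N_3 replicate 2, whose descriptions carry no replicate number, deviated from the other replicates of their group towards batch 2. The slope of that deviation on the log2 difference between batch 2 and batch 1 UT cells at 48 h, over the 1106 genes that differed by over 2-fold, was 0.624, 0.574 and 0.557 in these libraries and -0.384 to 0.0859 in the other 33 of batch 1. Calls at 24 h that change without them are given both ways, except for MT1M, for which no p-value is given. N_2 replicate 3 at 24 h also differed from its group and was kept in the fits without the 3 libraries. Its chi-square over degrees of freedom, a measure of disagreement beyond counting noise, was 84.93 and 131.1 against replicates 1 and 2. The second of these was the highest of all 54 pairs of replicates. OO replicate 1 was at 78.08 and 49 against replicates 2 and 3. At 48 h N_3 replicate 2 was at 44.33 and 58.45 against replicates 1 and 3. It was the lowest N_3 library of that time for MT2A, MT1X, MT1E and MT1F. VIM, CD44, AXL and CAV1, known markers of the line, were at 76.6 CPM or more in every library and ESR1 and PGR at 0.333 CPM or less, but SPARC was at most 2.89 CPM and GATA3 and EPCAM reached 45.6 and 27.6 CPM. The summed level of VIM, CD44, AXL, CAV1 and SPARC was 3610 to 3770 CPM in UT and 2140 to 3460 CPM in the treated groups at 24 h. At 48 h it was 3140 to 3170 CPM in UT, 1380 to 1470 CPM in N_2 and 1720 to 2250 CPM in the other mixtures of batch 1, and 3670 to 3980 CPM in UT and 1810 to 2240 CPM in the treated groups of batch 2. The summed level of 6 fibroblast markers, with DCN at 0 in 38 libraries, was 57.8 to 65.6 CPM in UT, 66.8 to 99.6 CPM in N_2 and 20.5 to 63.6 CPM in the other mixtures at 24 h. It was 73.1 to 76 CPM in UT, 84.8 to 91.5 CPM in N_2 and 27 to 49.4 CPM in the other mixtures at 48 h in batch 1, and 32.6 to 42.5 CPM in UT and 14.5 to 39.9 CPM in the treated groups of batch 2. The part of either sum in the results was not tested.

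**Figure D1:**
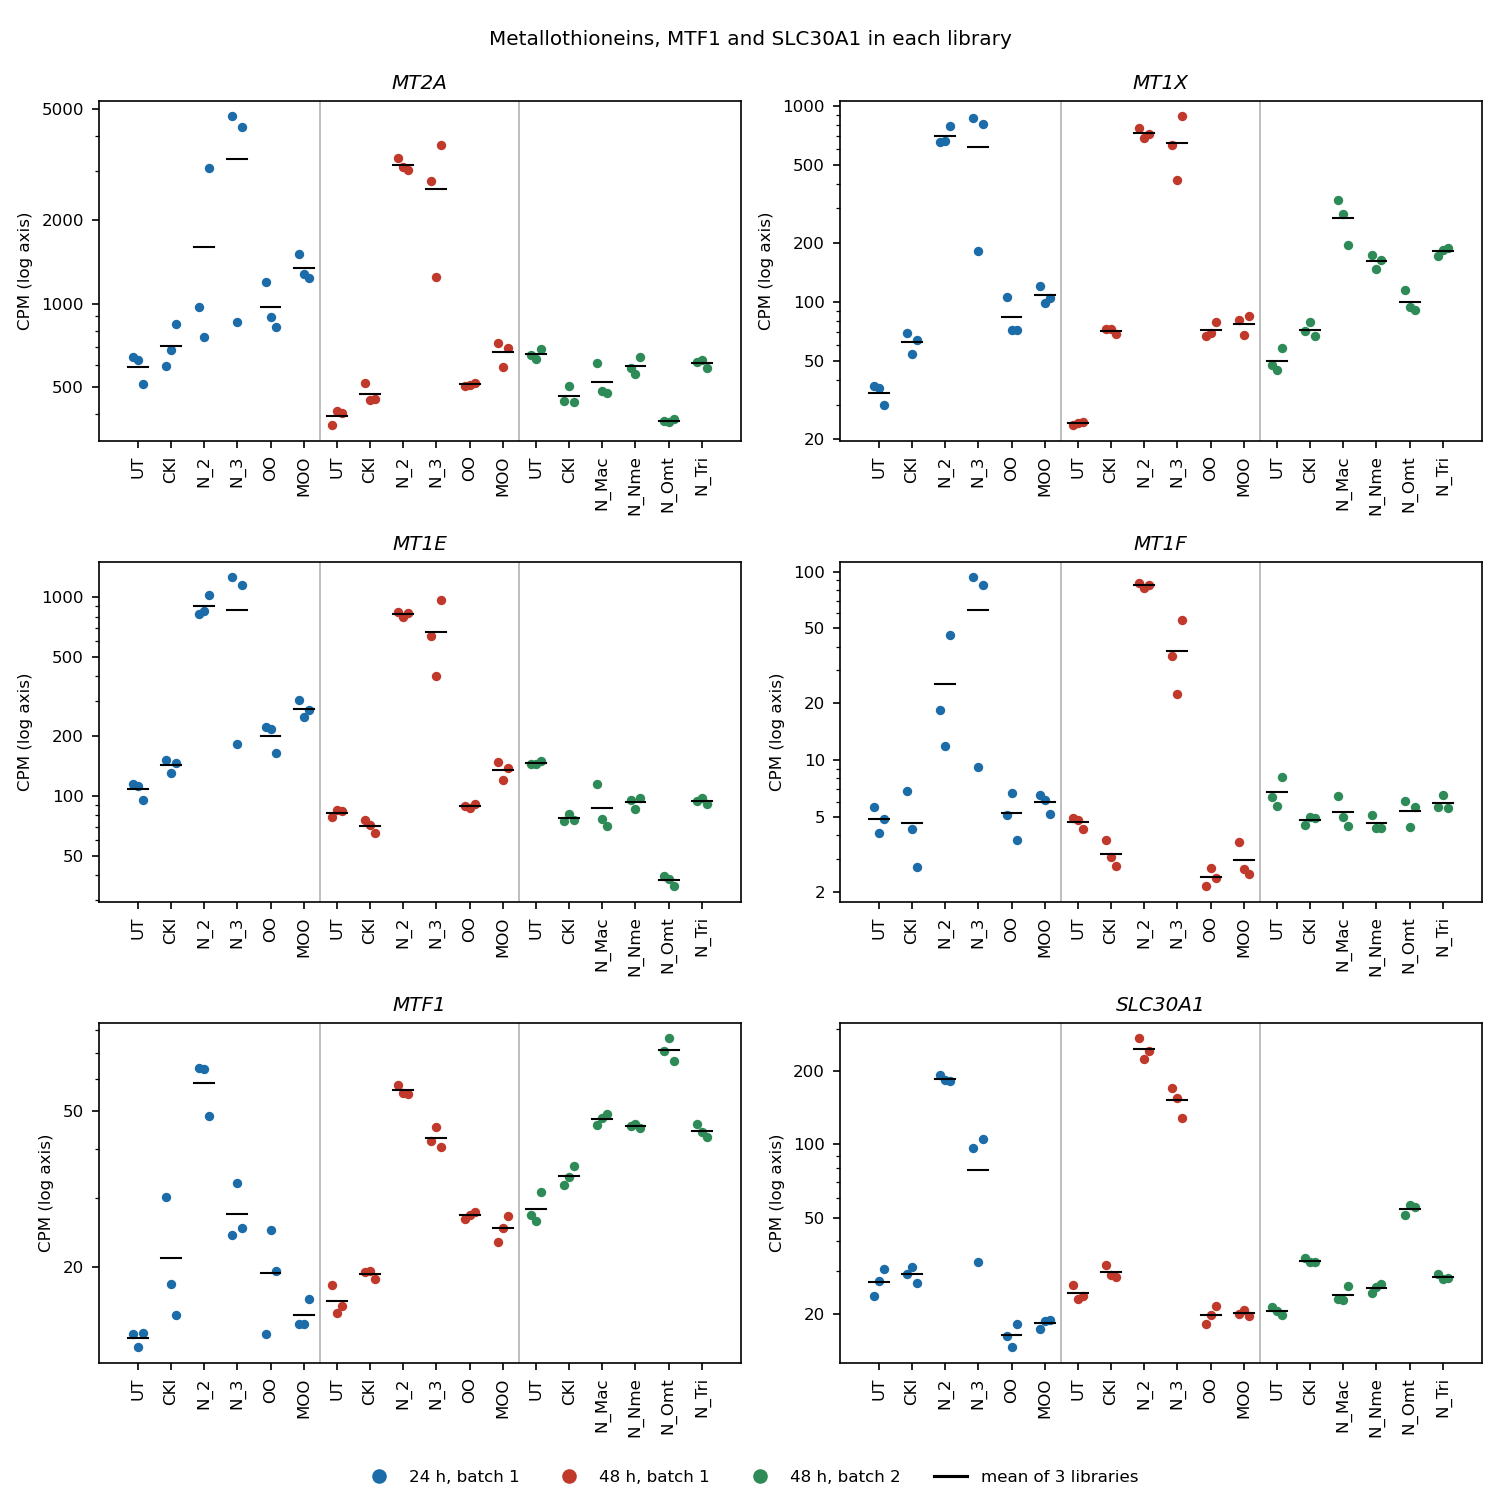
CPM of 6 genes in each library on a log axis, with the 18 groups along the horizontal axis and a mark at the mean of each group's 3 libraries. N_2 and N_3 stand highest in batch 1 for all 6 genes at 48 h, and the second N_3 library at 24 h lies well below the other 2 for MT2A (862 CPM against 4706 and 4323).

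The mixtures without Omt and Ospc had the highest mean levels of these genes at both times. MT2A, the most widely expressed human metallothionein, was at 514, 626 and 641 CPM in the 24 h UT libraries, at 756, 969.8 and 3073 CPM in N_2 and at 862, 4323 and 4706 CPM in N_3. At 48 h it was at 366, 403 and 411 CPM in UT, at 3015, 3095 and 3333 CPM in N_2 and at 1244, 2755 and 3717 CPM in N_3. All N_2 and N_3 libraries lay above all UT libraries of their time, with the 3 N_2 libraries close together at 48 h and a wide spread in the other treated groups. MT2A rose 2.73-fold in N_2 at 24 h (log2 1.45 ± 0.50 SE, adjusted p = 0.0182) and 8.01-fold at 48 h (3.00 ± 0.22, adjusted p = 3.61e-11). In N_3 it rose 5.58-fold at 24 h (2.48 ± 0.52, adjusted p = 0.00101) and 6.51-fold at 48 h (2.70 ± 0.22, adjusted p = 2.38e-10). The 24 h rise in N_2 depended on N_2 replicate 3, without which it was 0.57 on the log2 scale with an adjusted p of 0.274, and without UT replicate 3 it was 1.35 with an adjusted p of 0.0616.

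MT1X, a metallothionein of the MT1 group, had larger fold changes than MT2A in each of these comparisons. At 24 h it was at 29.7, 36.4 and 37.4 CPM in UT, 656, 662 and 789 CPM in N_2 and 182, 803 and 861 CPM in N_3. At 48 h it was at 23.5, 24.3 and 24.4 CPM in UT, 686, 713 and 770.0 CPM in N_2 and 419.9, 629.9 and 881 CPM in N_3. Every treated library was above every UT library, and the lowest N_3 library at 24 h was replicate 2, which stood apart. The rises were 20.7-fold in N_2 and 17.9-fold in N_3 at 24 h (log2 4.37 ± 0.41 and 4.16 ± 0.40 SE, adjusted p = 1.28e-07 and 1.01e-06). At 48 h they were 30.1-fold and 26.6-fold (4.91 ± 0.18 and 4.735 ± 0.18, adjusted p = 2.2e-16 and 3.94e-16).

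SLC30A1, the exporter, was at 23.8, 27.3 and 30.7 CPM in UT, at 183, 184 and 192 CPM in N_2 and at 32.9, 96.4 and 106 CPM in N_3 after 24 h. After 48 h it was at 23.0, 23.8 and 26.4 CPM in UT, at 225, 243 and 273 CPM in N_2 and at 129, 156 and 171 CPM in N_3. N_2 lay above N_3 and N_3 above UT at both times, with no overlap. SLC30A1 rose 6.95-fold in N_2 and 2.88-fold in N_3 at 24 h (log2 2.80 ± 0.29 and 1.53 ± 0.275 SE, adjusted p = 3.47e-07 and 0.000307). At 48 h it rose 10.1-fold and 6.20-fold (3.34 ± 0.10 and 2.63 ± 0.10, adjusted p = 7.56e-18 and 3.66e-16).

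MTF1, the zinc sensor, was also higher in these mixtures. It was at 12.6, 13.6 and 13.7 CPM in the 24 h UT libraries, 48.4, 63.6 and 64.0 CPM in N_2 and 24.2, 25.2 and 32.8 CPM in N_3. At 48 h it was at 15.3, 16.0 and 18.1 CPM in UT, 55.1, 55.5 and 58.1 CPM in N_2 and 40.4, 41.7 and 45.4 CPM in N_3. The 3 groups were separate at both times. MTF1 rose 4.50-fold and 2.07-fold at 24 h (adjusted p = 9.67e-07 and 0.00194) and 3.42-fold and 2.57-fold at 48 h (adjusted p = 3.14e-15 and 4.41e-13).

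MT1E and MT1F, further MT1 metallothioneins, rose in the same 4 comparisons. MT1E was at 96.1 to 115 CPM in UT, 828 to 1029.9 CPM in N_2 and 183 to 1259 CPM in N_3 at 24 h, and at 78.1 to 84.7, 792 to 847 and 399.8 to 972 CPM at 48 h. Its rises were 8.49-fold and 8.05-fold at 24 h (adjusted p = 1.33e-05 and 4.82e-05) and 10.0-fold and 8.13-fold at 48 h (adjusted p = 3.33e-13 and 1.98e-12). MT1F was at 4.11 to 5.67 CPM in UT, 11.9 to 46.0 CPM in N_2 and 9.13 to 93.1 CPM in N_3 at 24 h, and at 4.32 to 4.91, 81.6 to 87.5 and 22.3 to 55.4 CPM at 48 h. No treated library of either gene fell within the UT range. MT1F rose 5.31-fold and 12.9-fold at 24 h (adjusted p = 0.00334 and 0.000271) and 18.1-fold and 8.09-fold at 48 h (adjusted p = 7.45e-14 and 3.57e-11).

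Of the 8 genes, 6 were higher than UT in N_2 at 24 h, where 62.1% of all tested genes were called, and 7 in N_3, where 45.0% were. At 48 h 7 were higher in N_2 and 7 in N_3, against 76.6% and 71.1% of all tested genes called in either direction. The counts of 7 include MT1M, which passed the filter on low counts only through N_2 and N_3, so that nothing is read from its call. The log2 fold changes of the other 6 were 1.45 to 4.37 in N_2 and 1.05 to 4.16 in N_3 at 24 h. At 48 h they ran from 1.77 to 4.91 in N_2 and from 1.36 to 4.735 in N_3. The medians over all genes tested were -0.006, 0.031, 0.016 and 0.024 in the same order. Without the 3 libraries that stood apart, the 24 h log2 fold changes in N_3 were 2.93 for MT2A, 4.595 for MT1X, 4.20 for MT1F and 1.89 for SLC30A1, and these 4, MT1E and MTF1 were again called higher.

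**Figure D2:**
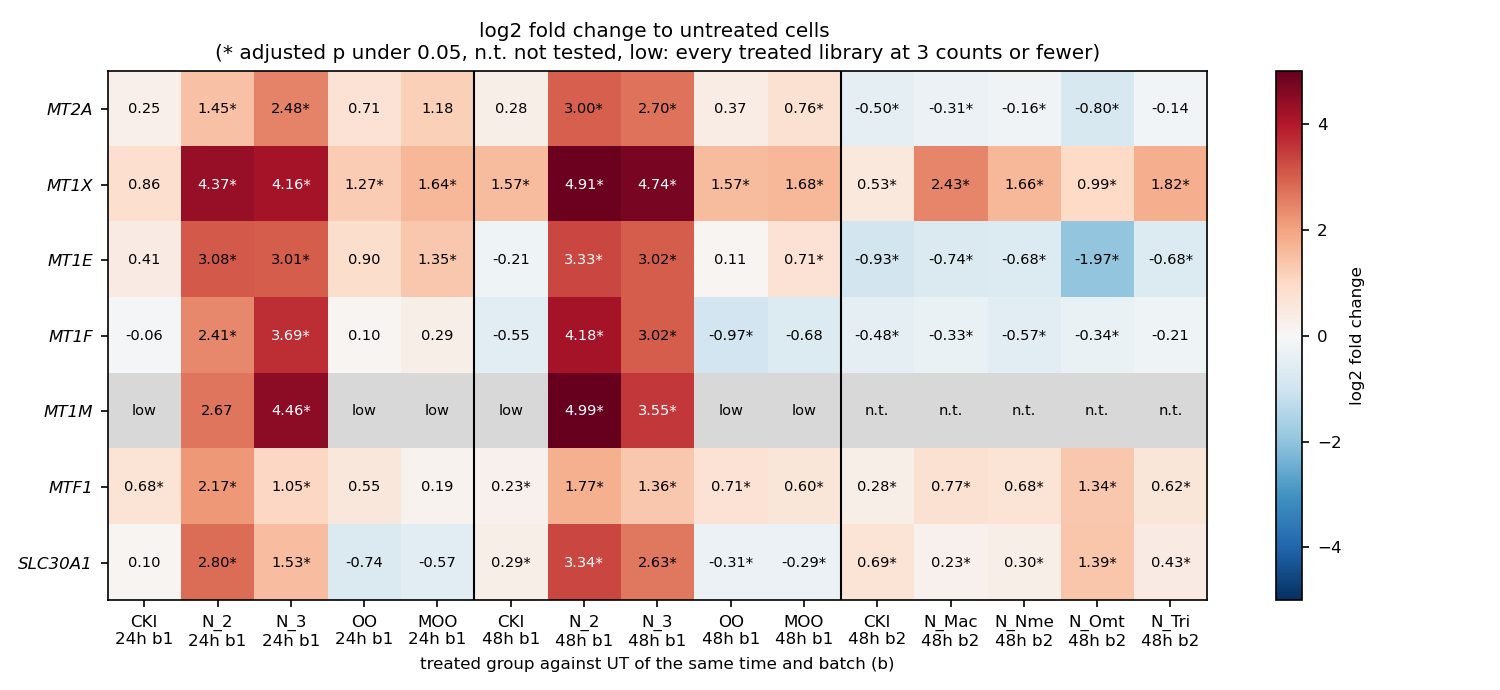
Log2 fold change of each gene (vertical axis) in each treated group against UT of the same time and batch (horizontal axis), red where higher, blue where lower, starred where called, and grey where MT1M was not tested or had 3 counts or fewer in every treated library. The N_2 and N_3 columns are red throughout, up to 4.91 for MT1X leaving aside MT1M, whose values depend on the filter on low counts, while MT2A, MT1E and MT1F are blue in batch 2, down to -1.97 for MT1E in N_Omt.

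In whole CKI, OO and MOO the metallothioneins differed from UT by smaller amounts. MT1X at 24 h was at 54.3, 63.8 and 69.4 CPM in CKI, 71.9, 72.3 and 106 CPM in OO and 98.3, 105 and 120.4 CPM in MOO, against 29.7 to 37.4 CPM in UT. No treated library fell within the UT range. MT1X rose 2.42-fold in OO (adjusted p = 0.0241) and 3.13-fold in MOO (adjusted p = 0.00775), and its 1.81-fold difference in CKI had an adjusted p of 0.0837, or 0.00201 without the 3 libraries. The call in OO was kept in 2 of 6 fits that left out 1 library, being lost without any of the UT libraries or OO replicate 1, at log2 1.07 to 1.37.

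After 48 h MT1X stood at 68.5, 72.5 and 73.1 CPM in CKI, 67.2, 69.0 and 79.4 CPM in OO and 67.4, 80.8 and 84.5 CPM in MOO, against 23.5 to 24.4 CPM in UT. These 3 groups overlapped one another and lay wholly above UT. The rises were 2.97-fold in CKI, 2.96-fold in OO and 3.20-fold in MOO (log2 1.57, 1.57 and 1.68, each ± 0.17 SE, adjusted p = 5.96e-08, 3.99e-08 and 2.08e-08).

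MT2A in MOO was at 1233, 1282 and 1508 CPM at 24 h, above UT in every library, a 2.26-fold difference with an adjusted p of 0.153, or 0.0371 without the 3 libraries. At 48 h MOO was at 594, 695 and 721 CPM of MT2A, a 1.69-fold rise (adjusted p = 0.0042). CKI at 452, 456 and 518 CPM and OO at 507, 509.7 and 520.3 CPM also lay above the UT libraries at 48 h, with adjusted p of 0.273 and 0.131. MT1E was called in MOO, at 2.55-fold at 24 h (adjusted p = 0.0472) and 1.64-fold at 48 h (adjusted p = 0.00188), and the 24 h call was lost whichever MOO or UT library was left out, at adjusted p of 0.0901 to 0.154. Without the 3 libraries MT1E was also called in OO at 24 h, at log2 0.84 (adjusted p = 0.00077).

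SLC30A1 was lower than UT in OO and MOO. At 24 h it was at 14.6, 16.2 and 18.3 CPM in OO and 17.4, 18.7 and 19.0 CPM in MOO, below all UT libraries (23.8 to 30.7 CPM). The adjusted p were 0.0781 and 0.221, or 0.00117 and 0.00144 without the 3 libraries. At 48 h OO was at 18.2, 19.8 and 21.5 CPM and MOO at 19.7, 19.9 and 20.8 CPM, again below UT (23.0 to 26.4 CPM). It fell 1.24-fold in OO (adjusted p = 0.0147) and 1.22-fold in MOO (adjusted p = 0.0238), and both calls were lost without UT replicate 1 or replicate 1 of the mixture and that in MOO also without MOO replicate 3, with adjusted p up to 0.0672 and 0.0946 when 1 library was left out. In CKI it was at 28.5, 29.0 and 32.0 CPM, above UT, a 1.22-fold rise (adjusted p = 0.0186) that was kept in 3 of 6 such fits, being lost without UT replicate 2 or 3 or CKI replicate 1, at adjusted p up to 0.0891. With all 54 libraries in 1 fit none of these 3 differences of SLC30A1 was called (adjusted p = 0.185 in OO, 0.235 in MOO and 0.2 in CKI), and with library sizes alone as the scaling those in OO and MOO were not (adjusted p = 0.0968 and 0.101).

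MTF1 rose 1.63-fold in OO and 1.51-fold in MOO at 48 h (adjusted p = 7.12e-08 and 1.28e-06). In CKI it rose 1.17-fold (adjusted p = 0.0183), a call kept in 2 of 6 fits that left out 1 library and lost without UT replicate 2 or 3 or CKI replicate 1 or 2, at adjusted p up to 0.0981. At 24 h MTF1 in CKI was at 15.1, 18.1 and 30.1 CPM, and the highest of these was replicate 1, which stood apart. Its 1.60-fold rise (adjusted p = 0.0399) became log2 0.33 with an adjusted p of 0.142 without the 3 libraries, and the call was also lost without any of the UT libraries. MT1F was lower than UT in OO at 48 h, at 2.14, 2.36 and 2.66 CPM against 4.32 to 4.91 CPM, a fall of 1.97-fold (adjusted p = 0.00723). With all 54 libraries in 1 fit the 48 h calls of MTF1 in CKI, MT1F in OO and MT2A in MOO were lost, at adjusted p of 0.227, 0.109 and 0.0659.

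Members called against UT at 24 h numbered 1 of 8 in CKI, 1 in OO and 2 in MOO, all higher, where 30.0%, 16.7% and 10.5% of all tested genes were called. At 48 h they numbered 3 higher in CKI (54.0% of all tested genes called), 2 higher and 2 lower in OO (57.8%), and 4 higher and 1 lower in MOO (51.2%). At both times 7 of the 8 genes were tested.

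In batch 2 the members split by direction. MT1X, MTF1 and SLC30A1 were higher than UT in CKI and in all 4 single removals, while MT2A, MT1E and MT1F were lower in CKI, N_Mac, N_Nme and N_Omt. In N_Tri MT1E was lower, and MT2A and MT1F had log2 fold changes of -0.14 and -0.21 with adjusted p of 0.0751 and 0.17. Called members thus numbered 3 higher and 3 lower of 8 in CKI, N_Mac, N_Nme and N_Omt, and 3 higher and 1 lower in N_Tri. The shares of all tested genes called were 66.4% in CKI, 72.4% in N_Mac, 71.3% in N_Nme, 78.2% in N_Omt and 72.2% in N_Tri. MT1G and MT1M were not tested in batch 2. Of the 6 members tested, 6 were called in each of the first 4 groups and 4 in N_Tri. Some of these calls were lost with all 54 libraries in 1 fit. Those lost in CKI were MT2A, MT1X, MT1F and MTF1, at adjusted p of 0.229, 0.0963, 0.393 and 0.118. Those lost in N_Mac were MT2A, MT1F and SLC30A1 (0.43, 0.525 and 0.311), and in N_Nme also MT1E (0.753, 0.312, 0.142 and 0.0524). MT1F in N_Omt and MT1E in N_Tri were lost at 0.526 and 0.0552. With library sizes alone as the scaling, MT1F in N_Mac and N_Omt and MT2A in N_Nme were not called either (adjusted p = 0.0877, 0.0542 and 0.276), nor were they in fits of the 2 groups compared alone (0.063, 0.0623 and 0.0661). MT1F in N_Omt was not called by DESeq2 (adjusted p = 0.0578).

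MT1X was highest where macrozamin had been removed. It was at 44.9, 47.4 and 58.2 CPM in UT, 66.9, 70.7 and 79.2 CPM in CKI and 195, 279 and 331 CPM in N_Mac. N_Tri followed at 171, 185 and 187 CPM, then N_Nme at 147, 163 and 173 CPM and N_Omt at 91.2, 94.3 and 115 CPM. N_Tri and N_Nme overlapped, and the other neighbours in this order were separate. The rises over UT were 1.45-fold in CKI, 5.40-fold in N_Mac, 3.53-fold in N_Tri, 3.17-fold in N_Nme and 1.99-fold in N_Omt (adjusted p = 0.000337, 5.98e-18, 8.61e-15, 8.47e-14 and 8.58e-09).

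SLC30A1 was instead highest where oxymatrine had been removed. It was at 19.8, 20.6 and 21.5 CPM in UT, 32.8, 32.9 and 34.0 CPM in CKI and 51.0, 55.3 and 56.3 CPM in N_Omt. N_Tri at 27.8, 28.1 and 29.2 CPM, N_Nme at 24.5, 25.8 and 26.7 CPM and N_Mac at 22.9, 23.0 and 26.2 CPM lay between UT and CKI, and only N_Nme and N_Mac overlapped among neighbours in this order. It rose 1.62-fold in CKI and 2.62-fold in N_Omt over UT (log2 0.69 ± 0.06 and 1.39 ± 0.06 SE, adjusted p = 4.66e-11 and 2.42e-19).

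MTF1 had the same peak. It was at 26.3, 27.2 and 31.0 CPM in UT, 32.3, 33.8 and 36.1 CPM in CKI and 66.7, 71.0 and 76.2 CPM in N_Omt, with N_Mac at 46.0 to 49.1, N_Nme at 45.2 to 46.3 and N_Tri at 42.9 to 46.2 CPM between CKI and N_Omt. It rose 1.21-fold in CKI and 2.53-fold in N_Omt (adjusted p = 0.000348 and 6.32e-19).

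MT1E was lowest in N_Omt. Its libraries were at 145, 146 and 150.2 CPM in UT, 74.5, 75.7 and 81.2 CPM in CKI and 35.2, 38.3 and 39.5 CPM in N_Omt. N_Mac (70.9, 76.5 and 114 CPM), N_Nme (86.0, 95.6 and 98.3 CPM) and N_Tri (90.8, 94.0 and 97.4 CPM) had means between those of CKI and UT. The N_Omt libraries lay below all others of the batch, and N_Mac overlapped CKI. MT1E fell 1.90-fold in CKI (adjusted p = 4.07e-10) and 3.91-fold in N_Omt (log2 -1.97 ± 0.10 SE, adjusted p = 9.39e-18) against UT.

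MT2A was also lowest in N_Omt. It was at 630.3, 653 and 688 CPM in UT, 443, 445 and 506 CPM in CKI and 377, 378 and 385 CPM in N_Omt, with no overlap among these groups. The falls against UT were 1.41-fold in CKI (adjusted p = 1.86e-07), 1.24-fold in N_Mac (adjusted p = 0.000165), 1.12-fold in N_Nme (adjusted p = 0.0397) and 1.74-fold in N_Omt (adjusted p = 5.45e-12). The N_Nme libraries overlapped UT, and that call was kept in 2 of 6 fits that left out 1 library, being lost without UT replicate 1 or 3 or N_Nme replicate 1 or 2, at adjusted p up to 0.238.

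MT1F was at 5.73 to 8.15 CPM in UT, with its largest fall in N_Nme at 1.48-fold (adjusted p = 0.000821). Its calls in CKI, N_Mac and N_Omt were lost without UT replicate 3, at adjusted p of 0.0548, 0.267 and 0.249. The N_Mac call was also lost without N_Mac replicate 2 or 3 and the N_Omt call without N_Omt replicate 2, at adjusted p of 0.104, 0.202 and 0.22.

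**Figure D3:**
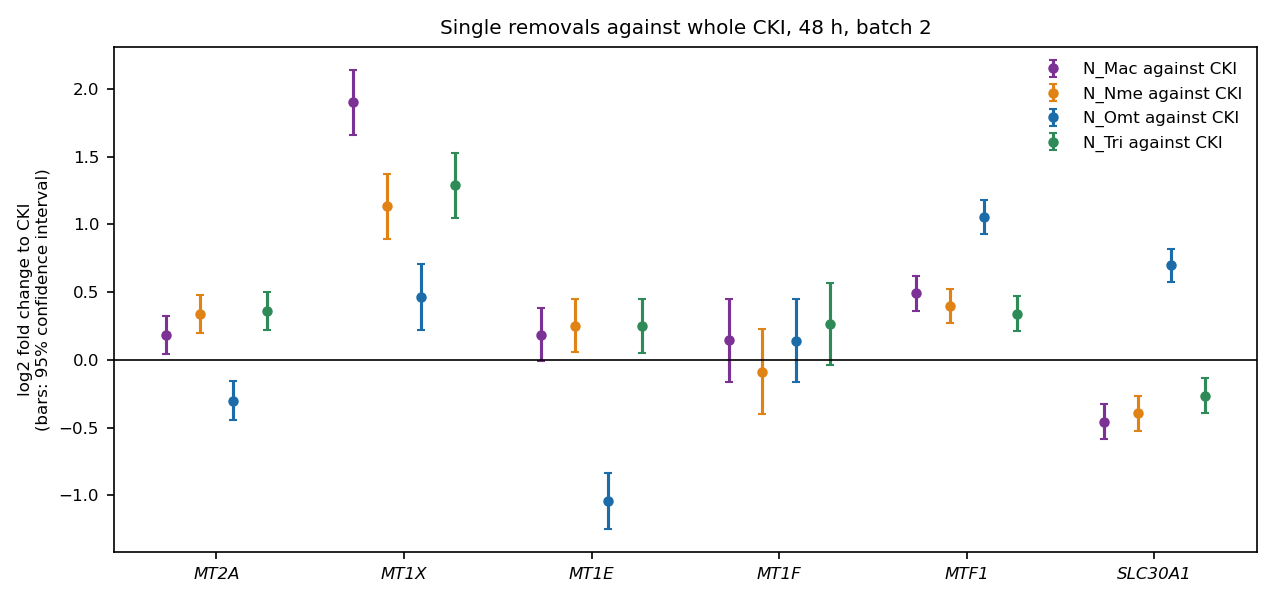
Log2 fold change of each single removal against whole CKI at 48 h in batch 2 for the 6 genes tested there, with bars for the 95% confidence interval. N_Omt is above 0 for MTF1 (1.06) and SLC30A1 (0.70) and below 0 for MT1E (-1.04) and MT2A (-0.30), whereas the other 3 removals are below 0 for SLC30A1.

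The single removals were set against whole CKI at the matched dose and time. Of the 8 genes, 6 were tested, and 3 were higher and 1 lower in N_Mac, 4 higher and 1 lower in N_Nme, 3 higher and 2 lower in N_Omt and 4 higher and 1 lower in N_Tri, beside 69.4%, 71.5%, 76.3% and 71.4% of all tested genes called. MT1X was above CKI by 3.73-fold in N_Mac, 2.44-fold in N_Tri, 2.19-fold in N_Nme and 1.38-fold in N_Omt (adjusted p = 1.91e-15, 1.99e-11, 3.43e-10 and 0.000801). MTF1 was above CKI in all 4, by 2.08-fold in N_Omt and by 1.27-fold to 1.40-fold in the others.

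SLC30A1 was 1.62-fold higher than CKI in N_Omt (adjusted p = 3.28e-12) and 1.37-fold, 1.31-fold and 1.20-fold lower in N_Mac, N_Nme and N_Tri (adjusted p = 1.41e-07, 1.5e-06 and 0.000384). MT1E was 2.06-fold lower than CKI in N_Omt (adjusted p = 1.07e-10) and 1.19-fold higher in N_Nme and N_Tri (adjusted p = 0.0206 and 0.0216), where the calls were kept in 2 and 3 of 6 fits that left out 1 library. Both were lost without CKI replicate 1 or 3, the N_Nme call also without N_Nme replicate 1 or 3 and the N_Tri call without N_Tri replicate 2, at adjusted p up to 0.0702 and 0.0719. In N_Mac the MT1E difference was 0.19 on the log2 scale with a 95% interval of -0.01 to 0.38, and it was called without N_Mac replicate 2 or 3, at up to 0.32.

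MT2A was 1.26-fold and 1.28-fold higher than CKI in N_Nme and N_Tri, 1.23-fold lower in N_Omt and 1.14-fold higher in N_Mac (adjusted p = 6.47e-05, 2.75e-05, 0.000268 and 0.0188). The N_Mac difference was 0.06 on the log2 scale without N_Mac replicate 1 (adjusted p = 0.41), and its call was also lost without CKI replicate 1 or 3. With all 54 libraries in 1 fit MT2A was called in none of the 4 (adjusted p = 0.332 to 0.689), and the calls of MT1X in N_Omt (0.115), of SLC30A1 in N_Nme and N_Tri (0.0799 and 0.295) and of MT1E in N_Nme and N_Tri (0.441 and 0.42) were lost. DESeq2 did not call MT1E in N_Nme and N_Tri either (adjusted p = 0.109 and 0.0787). MT1F did not pass in any of the 4, with log2 differences of -0.09 to 0.27 and 95% intervals of -0.40 to 0.23 in N_Nme and -0.04 to 0.57 in N_Tri at the extremes.

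In batch 1 N_2 and N_3 were compared with whole CKI. N_2 was higher than CKI in 7 of 8 genes at 24 h (58.7% of all tested genes called) and 7 at 48 h (73.1%), and N_3 in 6 (35.7%) and 7 (67.2%), each count including MT1M. MTF1 in N_3 at 24 h was not called, at log2 0.37, but was called without the 3 libraries that stood apart, at 0.57 (adjusted p = 0.0165). The call of MT2A in N_2 at 24 h was lost with library sizes alone as the scaling and with the 2 groups fitted alone (adjusted p = 0.127 and 0.0614). At 48 h the log2 differences from CKI were 3.34 ± 0.17 SE for MT1X, 3.05 ± 0.10 for SLC30A1 and 2.73 ± 0.22 for MT2A in N_2. In N_3 they were 3.165 ± 0.165, 2.34 ± 0.10 and 2.43 ± 0.22. MT2A in N_2 at 24 h overlapped CKI, with a log2 difference of 1.20 (adjusted p = 0.0468) that was 0.325 without N_2 replicate 3 (adjusted p = 0.548), and its call was also lost without any of the CKI libraries.

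OO and MOO at 24 h had 0 members called against CKI by edgeR, with 1 and 3 members at an unadjusted p under 0.05 and 1 and 0 called by DESeq2, where 8.49% and 11.6% of all tested genes were called. Without the 3 libraries that stood apart, SLC30A1 was called lower in OO and MOO (log2 -0.76 and -0.66, adjusted p = 0.00183 and 0.00164) and MT1X higher in both (0.60 and 0.87, adjusted p = 0.0398 and 0.00249), and MT1E was called higher in MOO (0.99, adjusted p = 0.000547). At 48 h 1 member was higher and 1 lower in OO (51.8%), and 2 were higher and 1 lower in MOO (47.6%). These were MTF1, 1.39-fold above CKI in OO and 1.29-fold in MOO, SLC30A1, 1.51-fold and 1.49-fold below it (adjusted p = 3.79e-05 and 6.71e-05), and MT1E, 1.89-fold above it in MOO. For MT1X at 48 h the 95% interval of the log2 difference from CKI was -0.33 to 0.32 in OO and -0.22 to 0.43 in MOO.

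The presence of macrozamin was compared in 2 settings. Adding it to Omt and Ospc (MOO against OO) gave 0 members called by edgeR at 24 h, with 0 at an unadjusted p under 0.05 and 0 by DESeq2, beside 0% of all tested genes. At 48 h it gave 0, with 1 at an unadjusted p under 0.05 and 0 by DESeq2, beside 1.98% of all tested genes. The exception at the unadjusted level was MT1E, at 120.1, 138 and 148 CPM in MOO against 87.0, 89.6 and 91.3 CPM in OO, a log2 difference of 0.60 (95% interval 0.235 to 0.965, adjusted p = 0.0845). At 48 h the interval was -0.215 to 0.43 for MT1X and -0.20 to 0.24 for SLC30A1. Every MOO library also lay above every OO library for MT2A, at log2 0.465 at 24 h and 0.386 at 48 h. The same held for MT1E at 24 h, at log2 0.449, and none of these differences was called. MT1X, MT1F, MTF1 and SLC30A1 overlapped between MOO and OO at both times.

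Where Omt and Ospc were absent, N_2, which keeps macrozamin, was compared with N_3, which lacks it. MTF1 was 2.17-fold higher in N_2 at 24 h and 1.33-fold at 48 h (adjusted p = 0.000918 and 6.23e-05), and SLC30A1 2.41-fold and 1.63-fold (adjusted p = 0.00106 and 1.31e-06). At 48 h MT1F was also higher, 2.24-fold (adjusted p = 1.08e-05). That made 2 of 8 members at 24 h and 4 at 48 h, MT1M included, all higher in N_2, beside 47.6% and 51.0% of all tested genes. For MT1X the groups overlapped at 48 h, with a 95% interval of the log2 difference of -0.14 to 0.49.

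The comparison of N_2 with N_3 depended on single libraries. Without N_3 replicate 2 at 24 h, which stood apart, the log2 difference of MT1E went from 0.08 to -0.405 (adjusted p = 0.0335), and MT2A and MT1F were then called lower in N_2 at -1.49 and -1.79. MT2A and MT1F were likewise called lower without N_2 replicate 3, at -1.91 and -2.02, and with all 54 libraries in 1 fit (adjusted p = 0.00802 and 0.0039). At 48 h MT2A, MT1X and MT1E were called higher in N_2 without N_3 replicate 3, at 0.65, 0.46 and 0.66.

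**Figure D4:**
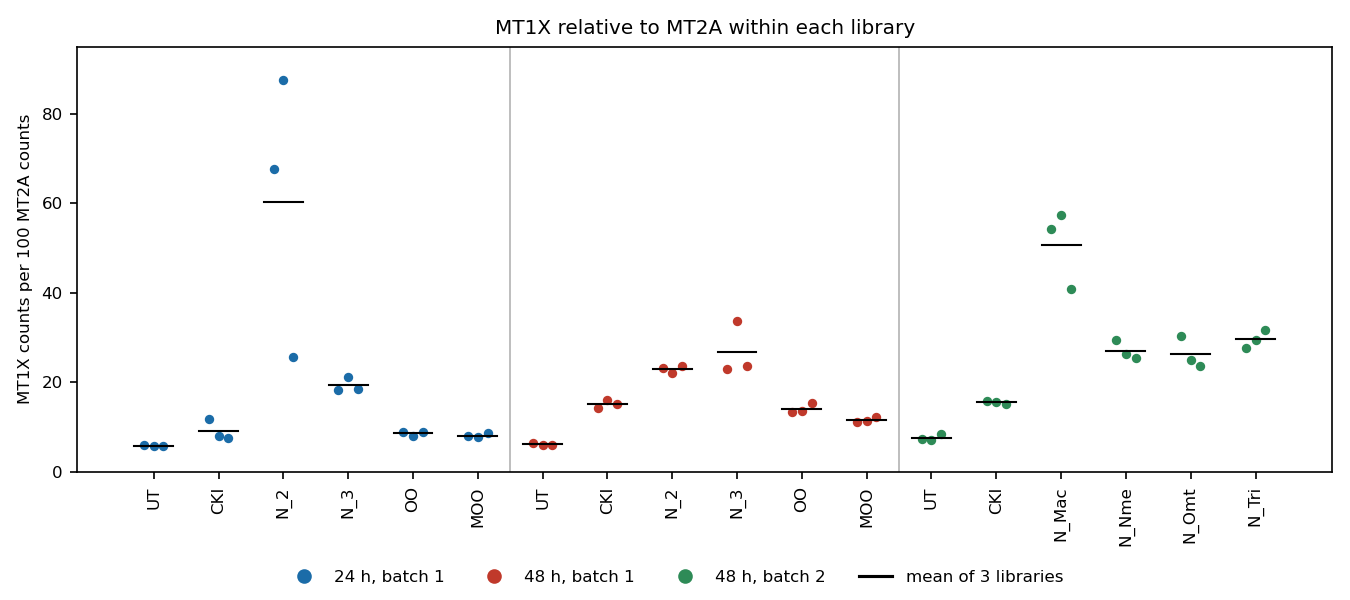
MT1X counts per 100 MT2A counts in each library, with the 18 groups along the horizontal axis and a mark at the mean of each group's 3 libraries. Every treated library lies above every UT library of its time and batch, and N_2 at 24 h (25.7 to 87.5) and N_Mac (40.8 to 57.4) are the highest.

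The share of MT1X reads relative to MT2A reads lay above that of UT in every treatment. For each 100 reads of MT2A, a ratio in which library size cancels, there were 5.82 ± 0.03 reads of MT1X (SD, n = 3) in UT at 24 h, 6.13 ± 0.275 in UT at 48 h in batch 1 and 7.62 ± 0.73 in UT in batch 2. In all 15 comparisons the 3 treated libraries lay above the 3 UT libraries (two-sided exact permutation p = 0.1, the smallest that 3 against 3 allows). At 48 h in batch 1 the ratio was 15.1 ± 0.96 in CKI, 14.0 ± 1.09 in OO, 11.6 ± 0.51 in MOO, 23.0 ± 0.75 in N_2 and 26.8 ± 6.07 in N_3.

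In batch 2 it was 15.6 ± 0.40 in CKI, 50.8 ± 8.83 in N_Mac, 29.6 ± 2.02 in N_Tri, 27.0 ± 2.16 in N_Nme and 26.4 ± 3.55 in N_Omt. N_2 at 24 h held 67.6 in replicate 1, 87.5 in replicate 2 and 25.7 in replicate 3, and replicate 3 was the library with the highest MT2A of that group. MT1E per 100 MT2A reads was below UT in batch 2, at 22.4 ± 0.62 in UT, 16.6 ± 0.53 in CKI and 9.92 ± 0.68 in N_Omt. At 48 h in batch 1 this ratio was 20.9 ± 0.38 in UT, 14.9 ± 0.71 in CKI, 17.4 ± 0.30 in OO and 20.2 ± 0.285 in MOO. In N_2 and N_3 it was above UT, at 26.2 ± 1.28 and 27.2 ± 4.55.

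**Figure D5:**
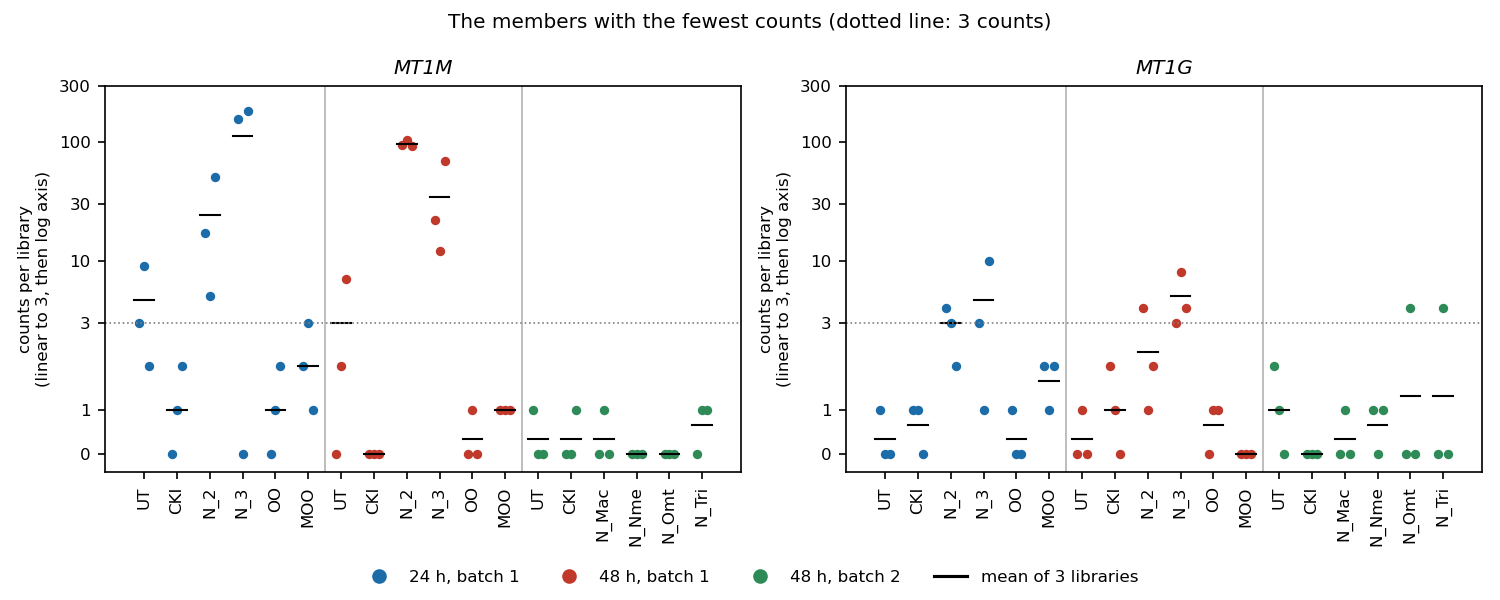
Counts of MT1M and MT1G in each library, with the 18 groups along the horizontal axis. MT1M exceeds 10 counts in N_2 and N_3 libraries alone, and MT1G is at 10 counts or fewer throughout.

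MT1G and MT1M, both MT1 metallothioneins, were too low to judge in most groups. MT1G had 0 counts in 23 of 54 libraries and at most 10, in N_3 at 24 h, and it passed the filter on low counts in no fit. Its largest sums over the 3 libraries of a group were 14 counts in N_3 at 24 h and 15 at 48 h, against 1 and 1 in UT. MT1M had 0 counts in 22 libraries and at most 1 count in any library of batch 2, where it was not tested. In batch 1 it passed the filter only through N_2 and N_3, since it had 9 counts or fewer in every other library.

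MT1M counts at 48 h were 0, 2 and 7 in UT, 95, 105 and 93 in N_2 and 22, 12 and 70 in N_3. At 24 h they were 3, 9 and 2 in UT, 17, 5 and 51 in N_2 and 157, 0 and 183 in N_3, with the 0 in the replicate that stood apart. N_2 and N_3 lay above UT at 48 h, and both overlapped UT at 24 h. No p-value is given for MT1M, because the groups where it was high decided that it was tested. CKI held 0 counts in all 3 libraries at 48 h. With that group set at a floor of 3 counts, MT1M was 110-fold higher in N_2 and 41.3-fold higher in N_3. The floor takes no account of the spread between replicates, so these folds are not bounds. CKI, OO and MOO were at 3 counts or fewer in every library, and no fold change is given for them.

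The time course was tested as the effect at 48 h minus that at 24 h in batch 1. MT2A and MT1F had larger effects in N_2 at 48 h, by log2 1.58 ± 0.57 SE (adjusted p = 0.0323) and 1.79 ± 0.70 (adjusted p = 0.047), and SLC30A1 in N_3, by 1.12 ± 0.30 (adjusted p = 0.0176). These were 2 of 8 members in N_2, beside 34.2% of all tested genes, and 1 in N_3, beside 7.35%. In CKI, OO and MOO edgeR called 0 members, with 0 at an unadjusted p under 0.05 and 0 by DESeq2 in each, beside 0.391%, 8.06% and 2.59% of all tested genes. The MT2A and MT1F differences in N_2 kept their direction with any library left out, at 1.22 to 2.45 and 1.44 to 2.53, but were called in 3 and 1 of 12 such fits. SLC30A1 in N_2 was called without the 3 libraries that stood apart, at 0.57 (adjusted p = 0.00174). The difference of SLC30A1 in N_3 ranged from 0.755 to 1.40 with 1 library left out in turn. Its call was lost without UT replicate 3 at 24 h alone (adjusted p = 0.0538).

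CKI was the only treatment given in both batches. Its effect at 48 h in batch 2 minus that in batch 1 was -0.76 ± 0.23 SE for MT2A, -1.03 ± 0.23 for MT1X, -0.705 ± 0.22 for MT1E and 0.41 ± 0.125 for SLC30A1 on the log2 scale (adjusted p = 0.0307, 0.00213, 0.0346 and 0.0302). These 4 of 8 members stood beside 8.90% of all tested genes. MT1X rose with CKI in both batches, 2.97-fold in batch 1 and 1.45-fold in batch 2. MT2A was 1.21-fold above UT in batch 1 without being called and fell 1.41-fold in batch 2. MT1E was below UT in both batches, at log2 -0.21 in batch 1 without being called and at -0.93 in batch 2. SLC30A1 was above UT in both, at log2 0.29 and 0.69. With 1 of the 12 libraries left out in turn, the calls of MT2A, MT1E and SLC30A1 were kept in 6, 2 and 7 fits, with adjusted p up to 0.0807, 0.0856 and 0.0721. With all 54 libraries in 1 fit none of the 4 was called (adjusted p = 0.57 for MT2A, 0.176 for MT1X, 0.523 for MT1E and 0.588 for SLC30A1), and DESeq2 did not call MT1E (adjusted p = 0.0529). The UT cells themselves differed between batches, by log2 1.05 for MT1X, 0.84 for MT1E, 0.77 for MTF1, 0.74 for MT2A and -0.24 for SLC30A1 (batch 2 minus batch 1), and the part of this in the difference between effects was not tested.

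Other genes of zinc and copper handling were taken from lists of 9 further metallothionein genes and pseudogenes, 9 other SLC30A exporters, 14 SLC39A importers and 10 copper genes. Up to 3 genes per list are named, those with the most calls, so their high numbers of calls follow from that choice. Of the 9 further metallothioneins, 2 passed the filter in batch 1 and 1 in batch 2. MT1B, at 0 or 1 count in each UT library, had 56 to 66 counts in N_2 and 5 to 30 in N_3 at 48 h and 0 to 71 in N_2 and N_3 at 24 h. It passed the filter only through these groups, so its calls are not given. MT1A had 10 to 90 counts per library and was called in 4 of 15, 3 of them lower. It was lower in CKI and N_2 at 24 h and in N_Tri, and higher in N_2 at 48 h. In N_3 it was called at neither time.

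Among the 9 exporters, 2 rose and 3 fell in N_2 at 48 h and 2 rose and 2 fell in N_3, with medians of -0.32 and 0.14 over the 6 tested, beside 76.6% and 71.1% of all tested genes called. SLC30A3, which loads zinc into synaptic vesicles, rose in 12 of 15 comparisons, by log2 3.68 ± 0.17 SE in N_2 and 2.58 ± 0.18 in N_3 at 48 h and 2.24 ± 0.15 in N_Omt. SLC30A4 was lower in 8 comparisons, at -1.39 ± 0.13 in N_3 at 48 h. SLC30A9 was lower in 5 and higher in 4, at -0.925 ± 0.07 in N_2 at 48 h and 0.34 ± 0.05 in N_Tri.

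Among the 14 importers, 3 rose and 4 fell in N_2 and 5 rose and 4 fell in N_3 at 48 h, with medians of -0.09 and 0.025 over the 11 tested, beside the same shares of all genes. SLC39A14, which takes up zinc, iron and manganese, rose in 13 of 15 comparisons, by log2 1.94 ± 0.14 SE in N_2 at 24 h and 1.26 ± 0.09 in OO at 48 h. SLC39A10 was lower in 12 and higher in 1, which was N_Omt at 0.19 ± 0.06. SLC39A1 was higher in 5, namely N_2 and N_3 at both times and N_Omt, and lower in 7.

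Of the 10 copper genes, 5 rose and 2 fell in N_2 at 48 h and 5 rose and 2 fell in N_Omt, with medians of 0.32 and 0.19 over the 10 tested, beside 76.6% and 78.2% of all tested genes called. SLC31A1, the high-affinity copper importer, rose in all 15 comparisons, from log2 0.46 ± 0.10 SE in MOO to 1.425 ± 0.10 in N_2, both at 24 h. SLC31A2 rose in 13, by 1.115 ± 0.06 in N_3 at 48 h. CCS, the chaperone that delivers copper to superoxide dismutase, was lower in 13, at -1.38 ± 0.175 in N_2 at 24 h and -1.05 ± 0.08 in N_Omt.

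Likeness between genes was taken as Pearson's r of log2 CPM over the 54 libraries after the mean of the UT libraries of the same time and batch was subtracted. These libraries share UT groups and treatments, so r is a description. Among the members MT2A was closest to MT1E (r = 0.93), then to MT1F (0.88) and MT1X (0.81), and further from SLC30A1 (0.59) and MTF1 (0.43). MT1X had r of 0.795 with SLC30A1 and 0.78 with MTF1, and MTF1 had 0.80 with SLC30A1.

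Over the 9777 genes compared, whose mean level was 10 CPM or more, those most like MT2A were SLC26A11 (0.84), EIF4EBP1 (0.84), SDR39U1 (0.83), GADD45B (0.815) and SBNO2 (0.81). Those most like SLC30A1 were ARC (0.95), DHX34 (0.94), ZNF503 (0.925), AKIRIN2 (0.92) and FBXO30 (0.92). ARC, known as an immediate early gene of neurons, and ZNF503 reached the minimum mean level only through N_2 and N_3. Their places in this order thus depend on that minimum. ARC was at 0.684 ± 0.137 CPM (SD, n = 3) in UT, 98.6 ± 12.8 CPM in N_2 and 66.7 ± 12.9 CPM in N_3 at 48 h in batch 1, and at 0.407 ± 0.254 CPM in UT and 8.80 ± 0.502 CPM in N_Omt in batch 2.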

How the data were processed

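RNA-seq was measured in 54 libraries of MDA-MB-231 cells. The authors deposited 1 table of raw read counts per gene, made per the submitters' processing notes with FastQC 0.11.4, Trim Galore 0.3.7, STAR 2.5.3a, Subread 1.5.2 (featureCounts) and build hg19, with edgeR 3.22.3 named for their own tests. The groups were taken from the sample labels. The 8 members, the zinc and copper lists and the tests were chosen with earlier results of these data known.

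Totals of 17673537 to 26138924 counts per library limit precision for genes with few counts, and no pair of replicates agreed within counting noise (chi-square over degrees of freedom 1.967 to 131.1). Genes with low counts were removed with filterByExpr, TMM factors were computed, and edgeR 4.0.16 in R 4.3.3 (with limma 3.58.1) fitted 3 quasi-likelihood models of 18 libraries (24 h batch 1, 48 h batch 1, 48 h batch 2), and models of 36 libraries for differences between effects. P-values were adjusted over all genes tested. DESeq2 1.42.0, other scalings, filters and fits, and leaving out each library, were alternatives. The code was tested on simulated data. Named genes were all 8 members, up to 3 genes per list with the most calls, and the 5 genes most like MT2A and SLC30A1. Promoter sequences came from RefSeq (GRCh38.p14), and no coordinates of hg19 were used.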

Additional observations from a re-analysis of the deposited data

Results flagged for a closer look

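A test of the difference between 2 effects of the same treatment singled out 7 values, each described above with its error. For time (48 h minus 24 h, log2, batch 1) these were 1.58 for MT2A and 1.79 for MT1F in N_2 and 1.12 for SLC30A1 in N_3. For CKI (batch 2 minus batch 1, log2, 48 h) they were -0.76 for MT2A, -1.03 for MT1X, -0.705 for MT1E and 0.41 for SLC30A1. Their causes were not tested.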

How the results depend on the processing

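The 3804 member values recomputed under other settings kept their direction and side of the threshold in 3497 cases, lost the call in 203, gained one in 102 and turned their sign with a call in 2, with 63 further sign changes in values without a call. A further minimum of 1 on the size of the log2 fold change left 17 of 26 member calls against UT at 48 h in batch 1, 6 of 28 in batch 2, 5 of 19 for single removals against CKI, 1 of 4 for the CKI effect between batches and 43 of 235 calls of zinc and copper genes. With all 54 libraries in 1 fit the counts were 15 in batch 2, 10 for single removals and 0 for CKI between batches. The share of all tested genes called under these settings is not given, so the losses are not read as particular to the members. The counts of members include MT1M where it was tested, and those of zinc and copper genes include MT1B. For macrozamin present against absent the count went from 6 to 10 with no filter on low counts and to 10 without the 3 libraries that stood apart, where MT1E in N_2 against N_3 at 24 h turned to -0.405. Leaving out 1 library gave 6 to 10 calls for macrozamin, 1 to 5 for time (3 with all libraries) and 1 to 4 for CKI between batches, and MT1E in N_2 against N_3 ranged from -0.405 to 0.452. The causes were not tested. Scaling by library size alone moved the median of all genes by -0.307 in N_2 at 24 h (50.2% to 34.4% of calls higher) and by 0.106 in OO at 48 h (50.4% to 61.5%). It also moved the share of higher calls from 50.2% to 60.5% in MOO at 48 h. Replicate numbers were not used to pair the samples in the main fits. Same-numbered libraries had correlations of -0.563 to 0.544 at 24 h, -0.137 to 0.159 at 48 h in batch 1 and -0.032 to 0.062 in batch 2. Their medians were -0.012, 0.005 and 0.008, against 0.008, 0.001 and -0.004 for libraries of other numbers. At 24 h 14 of 45 same-numbered pairs were over 0.1. With the replicate block the member counts were 15 (17 without it) at 24 h, 28 (26) at 48 h in batch 1, 28 (28) in batch 2, 19 (19) for single removals, 31 (32) against CKI in batch 1, 6 (6) for macrozamin, 3 (3) for time and 4 (4) for CKI between batches, and 238 (235) for zinc and copper genes. Few counts limit MT1G in all groups and MT1M outside N_2 and N_3.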
